A study of Mus musculus with 24 samples.

Results

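The clustered protocadherins are cadherin-family adhesion receptors encoded by a tandem array on mouse chromosome 18. They were taken from the deposited gene table by symbol, and 57 of its 55341 gene names matched, made up of 13 alpha, 22 beta and 22 gamma genes. The table, on the mm10 build, places the alpha genes at chr18:36930184-37187661, the beta genes at chr18:37264938-37524479 and the gamma genes at chr18:37661793-37841873, all on the plus strand and within 912 kb. The gamma genes are described as 19 A-type and B-type members and 3 C-type members (Pcdhgc3, Pcdhgc4 and Pcdhgc5).

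Each alpha or gamma messenger RNA joins its own large variable exon to constant exons that all members of that cluster share, whereas a beta gene is a single large exon with no constant part. In neurons the variable promoters are chosen in combinations that differ between cells, and the proteins bind their own kind across membranes, which gives neurites a means of telling self from non-self. CTCF and cohesin bring distant enhancers to these promoters, and NIPBL, the partner of MAU2, is the factor that loads cohesin and drives loop extrusion.

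The study measured total RNA in 3134 cells, a mouse mammary adenocarcinoma line, after knockdown of NIPBL and its replacement by NIPBL constructs. All 24 libraries came from cells that carry an IPTG-inducible hairpin against NIPBL (shNIPBL) and a construct added by piggyBac integration, grown for 3 days in charcoal-stripped serum. With 1 mM IPTG the constructs were NIPBL mutant C1, mutant C2, the C1-C2 mutant, wild-type NIPBL or an empty vector, and the empty-vector cells were also grown without IPTG. Each of these 6 states was given 100 nM dexamethasone, a glucocorticoid, or ethanol for 2 hours, which makes 12 groups of 2 libraries.

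The labels do not say what C1 and C2 change, name no separate line or clone for a construct, and hold no group with IPTG but no hairpin, so IPTG itself and the knockdown cannot be told apart. A construct, its level and the cells that carry it cannot be told apart either. The submitters call the replicates biological without saying whether they were separate cultures, so a p-value here takes in no more than the spread among these libraries, which may be technical. The names of the ethanol and dexamethasone libraries run in separate number blocks, so hormone and library series cannot be told apart. One ethanol library of the C1-C2 mutant (replicate 2) has ethanol in its title and dexamethasone in its treatment label, and it was grouped by its title. Depth was 45.0 to 72.9 M counts in dexamethasone libraries and 32.5 to 42.7 M in ethanol libraries. The targeted gene, Nipbl, lay between 48.0 and 73.3 CPM, which are counts scaled to library size, in the 20 libraries with IPTG, those with a NIPBL construct included, and between 151 and 186 CPM in the 4 without. Of the 6 mesenchymal markers examined, Vim (3327 to 4456 CPM), Col1a2 (1386 to 1845 CPM) and Fn1 (1087 to 3296 CPM) were high, whereas Col1a1 was at 0.400 to 2.05 CPM. Of the 8 epithelial and mammary markers, Epcam and Wap were at 0 in all libraries, and Krt18, Krt5 and Cdh1 reached no more than 0.0467, 0.0506 and 0.0808 CPM. Krt14 reached 13.4 to 21.8 CPM, Esr1 2.99 to 5.28 CPM and Krt8 0.343 to 0.767 CPM. The 8 neuronal markers examined summed to 0 to 0.343 CPM, with Elavl4 at 0.

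Most of the array's reads came from Pcdhgc3. Summed over the 24 libraries, the alpha genes held 2805 counts, the beta genes 12275 and the gamma genes 205836, of which Pcdhgc3 alone held 196026. Per kilobase of exon sequence that no other annotated gene on the strand shares, Pcdhgc3 reached 52.2 CPM in ethanol cells without IPTG. On the same scale Pcdhgb7 followed at 1.59, Pcdhgc4 at 0.798, Pcdhgc5 at 0.685, Pcdhb14 at 0.462 and Pcdha1 at 0.193. Within each set 1 member led in every ethanol group: Pcdha1 held 24.4% to 35.3% of the summed alpha CPM, Pcdhb14 29.3% to 45.6% of beta, Pcdhgb7 35.8% to 43.2% of gamma A and B, and Pcdhgc3 96.7% to 97.8% of the C-type genes. Pcdhb1 and Pcdhb3 had no count in any library.

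These counts come with limits that differ between the clusters. Exons shared with other annotated genes on the strand, the constant exons among them, leave part of the exon bases to a member alone. The median was 46.4% for an alpha member and 55.3% for a gamma member, against 100.0% for a beta gene. Reads from the constant exons did not appear under every gamma gene: in the empty-vector ethanol library with IPTG numbered 1, Pcdhgc3 held 6402 counts while 10 of the 19 gamma A and B members were at 0. Neighbouring members are close in sequence, Pcdhb21 and Pcdhb22 overlap, Pcdhgb8 is annotated as a polymorphic pseudogene, and BC037039 lies antisense to Pcdhgc3 at 0.734 to 1.79 CPM. How reads on such sequence or on the other strand were assigned is not given in the sources used here, so values of single members remain uncertain to that extent. A filter on low counts passed 34 members, made up of 6 alpha, 11 beta, 14 gamma A and B and all 3 C-type genes. The filter favours members that are high in 1 group: Pcdhga10 passed with 63 counts in all, whereas Pcdhga7 with 101 and Pcdha8 with 94 did not. Counts over the 34 therefore describe those genes and not the family.

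The first comparison set empty-vector cells with IPTG, in which NIPBL was knocked down, against the same cells without IPTG. Of the 4 sets, gamma A and B differed by the largest factor. Their summed level was 1.01 and 1.23 CPM in the 2 knockdown ethanol libraries, against 10.1 and 11.2 CPM in the 2 ethanol libraries without IPTG, and 0.887 and 1.05 CPM against 10.4 and 10.9 CPM in dexamethasone. The sums lay far apart in both treatments, 9.48-fold lower with knockdown in ethanol and 10.97-fold lower in dexamethasone. In bulk RNA, fewer cells using a promoter and less RNA per cell cannot be told apart.

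**Figure D1:**
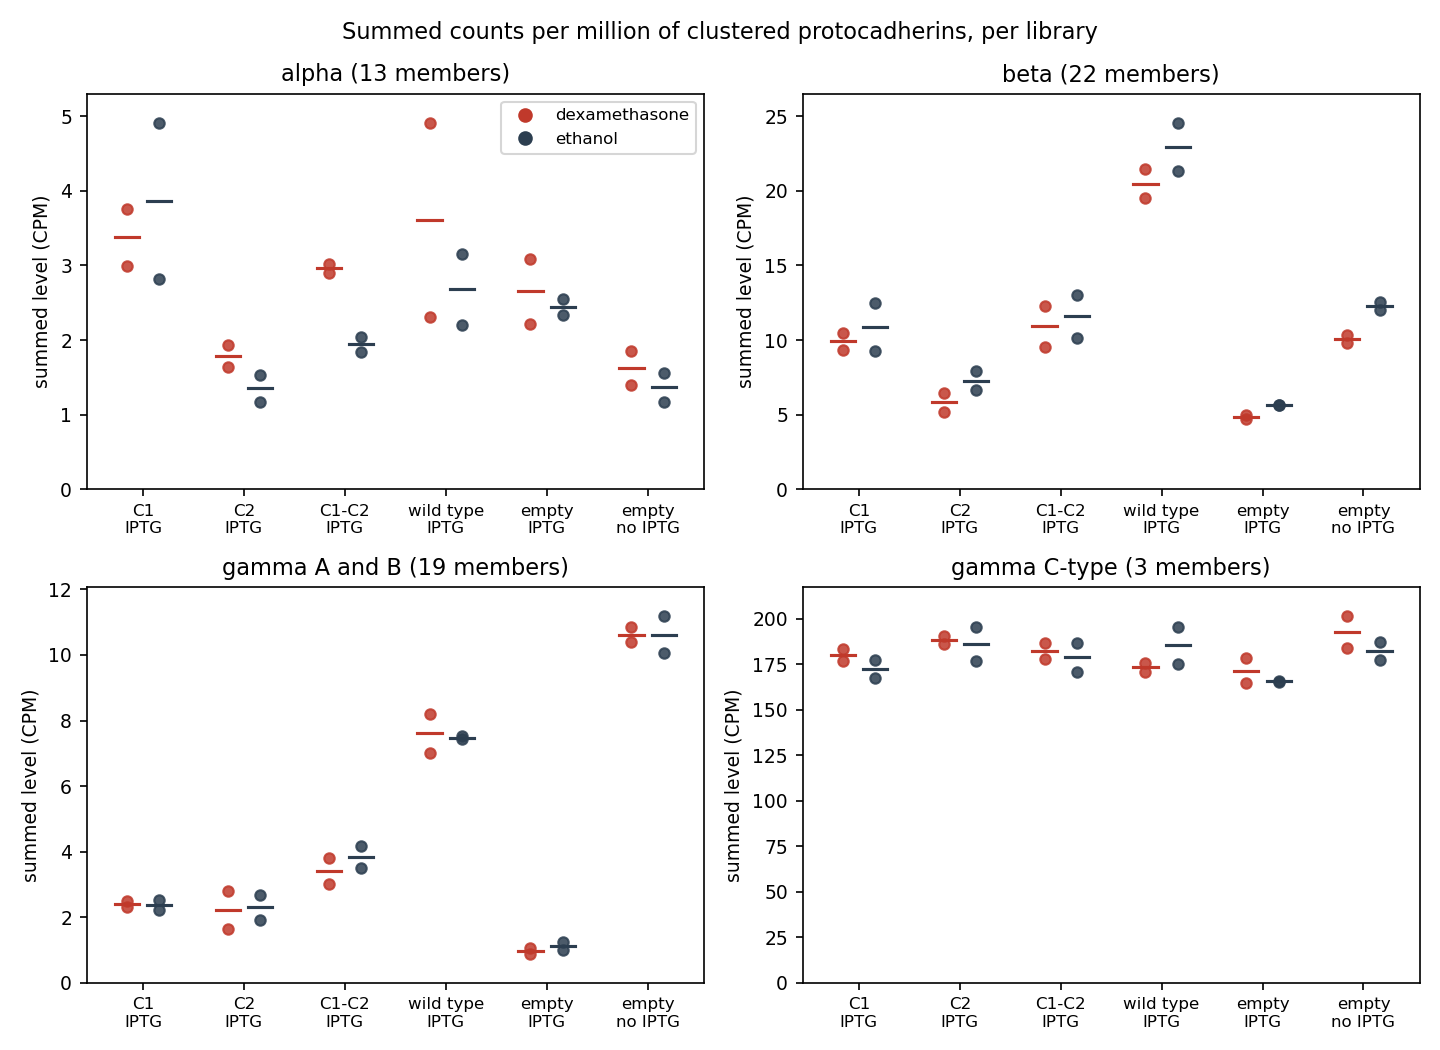
Summed level of each protocadherin set in CPM (y axis, linear, one panel a set) in the 6 states (x axis), with dexamethasone libraries left of ethanol libraries; points are libraries and bars their mean (n = 2). Gamma A and B sums are near 1 CPM in empty-vector cells with IPTG and near 10.6 CPM without, beta sums are highest with wild-type NIPBL, and C-type sums stay between 164.5 and 201 CPM.

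All 19 gamma A and B members had a lower mean CPM with knockdown in ethanol, and all 19 in dexamethasone, where 49.7% and 49.1% of all genes with a count were lower. In ethanol 9 of the 14 tested fell by edgeR's quasi-likelihood test at a Benjamini-Hochberg adjusted p under 0.05. Of the 16934 tested genes, 6.24% received that call in that direction. In dexamethasone 12 of the 14 fell (8.49% of tested genes). The 9 in ethanol were Pcdhga3, Pcdhga4, Pcdhgb2, Pcdhga6, Pcdhgb6, Pcdhgb7, Pcdhga11, Pcdhgb8 and Pcdhga12, and the 12 in dexamethasone were these with Pcdhga1, Pcdhga5 and Pcdhgb5. None of the other gamma A and B members was called higher.

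Pcdhgb7, the most abundant gamma A and B gene, read 0.481 and 0.330 CPM in knockdown ethanol libraries, against 4.08 and 4.14 CPM without IPTG. In dexamethasone it read 0.202 and 0.323 CPM with knockdown, against 4.22 and 4.49 CPM. The groups did not overlap in either treatment. It was 9.96-fold lower in ethanol (log2 -3.32, SE 0.29, edgeR adjusted p = 2.55e-08) and 16.5-fold lower in dexamethasone (edgeR adjusted p = 6.07e-10).

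Several other gamma genes reached the counting floor with knockdown; these were named after their values were seen. Pcdhgb6 had 3 counts in the 2 knockdown ethanol libraries, against 74 without IPTG, which is 23.3-fold lower by library size with an exact 95% interval of 7.67 to 116. Pcdhga12 had 2 counts against 48, 22.7-fold lower (5.95 to 193). Pcdhga4 and Pcdhga6 had none in knockdown ethanol libraries, against 24 counts each, so with 3 counts per group as the floor both were at least 7.56-fold lower. Pcdhga3, with none against 18, was at least 5.67-fold lower, and Pcdhga8, under the filter, had none against 22 counts in dexamethasone, at least 7.26-fold lower. These intervals cover counting error only. The floors take the count without IPTG as exact, so they are not 95% bounds. Of the 19 gamma A and B members, 10 and 8 were at 0 in the knockdown ethanol libraries and 6 and 5 in those with dexamethasone, whereas none was at 0 in any of the 4 libraries without IPTG. The 5 members under the filter summed to 8 counts with knockdown in ethanol, against 58 without IPTG, and to 13 against 82 in dexamethasone, so these low members were lower with knockdown too.

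**Figure D2:**
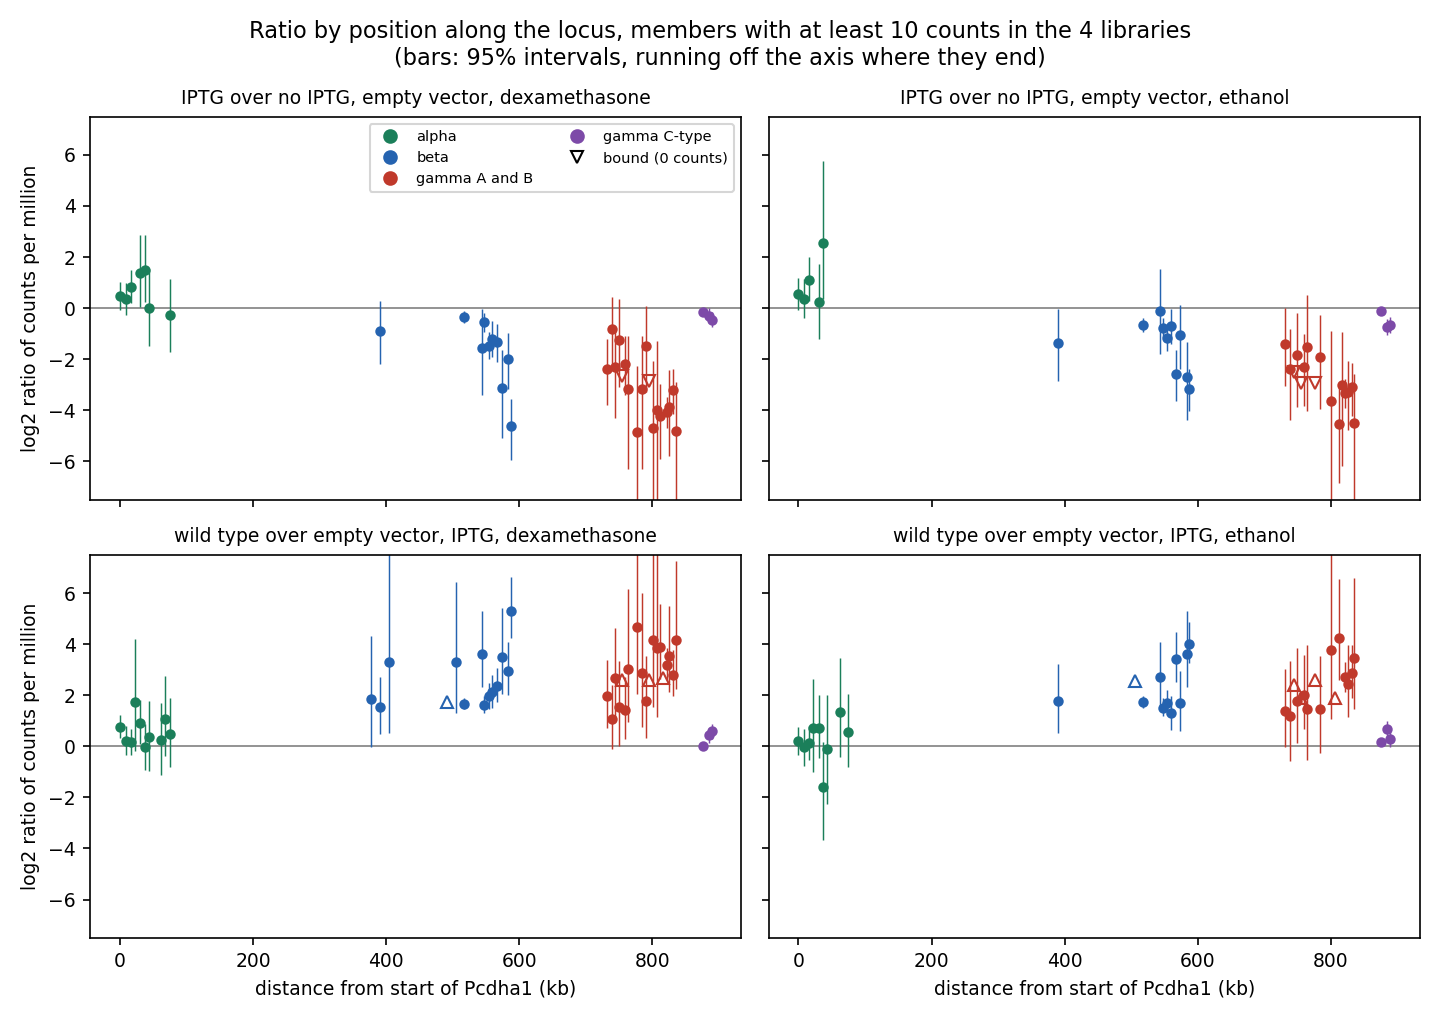
Log2 ratio of summed counts scaled to library size (y axis) by distance of each member from the start of Pcdha1 in kb (x axis), for members with at least 10 counts in the 4 libraries compared; upper panels set knockdown over no IPTG and lower panels wild-type NIPBL over empty vector, dexamethasone left of ethanol. Vertical bars are exact 95% intervals and triangles are bounds where a group had no count; in the upper panels beta and gamma A and B points lie below 0, as do Pcdhgc4 and Pcdhgc5, with Pcdhgc3 just below it, and in the lower panels beta and gamma A and B points lie above 0.

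The C-type gamma genes lie at the end of the same cluster and share its constant exons. Their sum, almost all of it Pcdhgc3, differed little, while Pcdhgc4 and Pcdhgc5 were lower by about as much as Pcdhb14, without a call. Pcdhgc3, known in mouse to promote dendrite arborisation, read 162 and 162 CPM in knockdown ethanol libraries, against 181 and 172 CPM without IPTG, a log2 change of -0.12 (SE 0.06, edgeR adjusted p = 0.217). In dexamethasone it read 175 and 161 CPM, against 197 and 179 CPM (log2 -0.16, SE 0.06, edgeR adjusted p = 0.0745). The groups stood apart in each treatment, by a small part of the level. Pcdhgc4, which mouse interneurons need to survive, read 1.65 and 1.74 CPM with knockdown in ethanol, against 3.13 and 2.42 CPM (1.65-fold lower, edgeR adjusted p = 0.0862). Pcdhgc5 read 2.08 and 1.95 CPM, against 3.34 and 2.98 CPM (1.57-fold lower, edgeR adjusted p = 0.0984). None of the 3 was called in either treatment by edgeR, with 2 lower at an unadjusted p under 0.05 in ethanol and 1 in dexamethasone, and DESeq2 called none. The C-type sum was 1.10-fold lower with knockdown in ethanol and 1.12-fold lower in dexamethasone.

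The beta sum was lower by a smaller factor than the gamma A and B sum. It was 5.64 and 5.64 CPM in knockdown ethanol libraries, against 11.99 and 12.6 CPM without IPTG, and 4.68 and 4.99 CPM against 9.78 and 10.3 CPM in dexamethasone, 2.18-fold and 2.08-fold lower. Mean CPM was lower for 17 of the 18 beta genes with a count in ethanol and for 16 of 17 in dexamethasone. In each treatment 6 of the 11 tested beta genes were called lower by edgeR, as were 6.24% of all tested genes in ethanol and 8.49% in dexamethasone. They were Pcdhb14, Pcdhb16, Pcdhb17, Pcdhb19, Pcdhb21 and Pcdhb22 in ethanol, and Pcdhb17 to Pcdhb22 in dexamethasone.

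Beta members differed widely in size of change. Pcdhb22, the last of the cluster, read 0.354 and 0.0300 CPM in knockdown ethanol libraries, against 1.73 and 1.98 CPM without IPTG, 8.97-fold lower (log2 -3.17, SE 0.50, edgeR adjusted p = 0.000148). In dexamethasone it read 0.101 and 0.0403 CPM, against 1.89 and 1.63 CPM (23.99-fold lower, edgeR adjusted p = 4.61e-06). No knockdown library reached the level of a library without IPTG. Pcdhb14, the most abundant, read 2.33 and 2.82 CPM with knockdown in ethanol, against 4.04 and 3.998 CPM, only 1.57-fold lower (edgeR adjusted p = 0.00539), and 2.504 and 2.36 CPM against 2.87 and 3.26 CPM in dexamethasone (1.26-fold lower, edgeR adjusted p = 0.129). Pcdhb17 read 0.633 and 0.660 CPM with knockdown in ethanol, against 1.42 and 1.46 CPM, 2.23-fold lower (edgeR adjusted p = 0.0177) and 2.75-fold lower in dexamethasone (edgeR adjusted p = 0.00247). Its groups did not overlap in either treatment. Pcdhb16 read 1.39 and 1.14 CPM with knockdown in ethanol, against 2.08 and 2.28 CPM, 1.71-fold lower (edgeR adjusted p = 0.0265) and 1.46-fold lower in dexamethasone (edgeR adjusted p = 0.111).

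The alpha genes went the other way in level, without a call. Their sum was 2.34 and 2.56 CPM in knockdown ethanol libraries, against 1.17 and 1.56 CPM without IPTG, and 2.22 and 3.08 CPM against 1.40 and 1.85 CPM in dexamethasone. Neither pair of groups overlapped, and the sums were 1.79-fold and 1.63-fold higher with knockdown. Only 1 of the 13 alpha genes had a lower mean CPM in ethanol and 3 of the 12 with a count in dexamethasone. None of the 6 that passed the filter was called higher by edgeR, a call that 7.16% of tested genes received in ethanol and 8.36% in dexamethasone. Both treatments had 2 alpha genes higher at an unadjusted p under 0.05, DESeq2 called none, and the lowest edgeR adjusted p was 0.101 in ethanol and 0.122 in dexamethasone. Pcdha3 had 0.607 and 0.390 CPM with knockdown in ethanol, against 0.233 and 0.233 CPM (log2 1.10, SE 0.46, edgeR adjusted p = 0.125), which did not overlap. Pcdha1, the highest alpha gene, had 0.911 and 0.540 CPM against 0.700 and 0.263 CPM, which overlapped. Pcdha2 had 0.405 and 0.540 CPM against 0.350 and 0.379 CPM (log2 0.36, SE 0.53), and Pcdha5 had 0.0759 and 0.210 CPM against 0.117 and 0.117 CPM (log2 0.24, SE 0.74).

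Over the whole array 15 of the 34 tested members were called lower in ethanol (6.24% of tested genes) and 18 in dexamethasone (8.49%), 13 of them in both. None was called higher (7.16% and 8.36% of tested genes were). At an unadjusted p under 0.05 edgeR had 2 higher in each treatment, and DESeq2 called none higher. Of the 34 tested members, 25 had both ethanol knockdown libraries below both libraries without IPTG, as had 27.7% of all tested genes, and 26 in dexamethasone (27.1%); 4 alpha members were non-overlapping in the other direction in each treatment (27.5% and 28.8%). The change with knockdown was not shown to differ between treatments for any member, with an edgeR adjusted p no lower than 0.923 (0.153% of genes were called lower and 0.0177% higher; at an unadjusted p under 0.05 edgeR had 1 member higher and none lower, and DESeq2 called none). For Pcdhgb7 the difference between treatments was log2 -0.725 (SE 0.46). The count of calls depended on how low counts were handled: DESeq2 called 7 members lower in ethanol and 5 in dexamethasone, and a filter of 1 CPM in 2 libraries left 7 and 6.

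**Figure D3:**
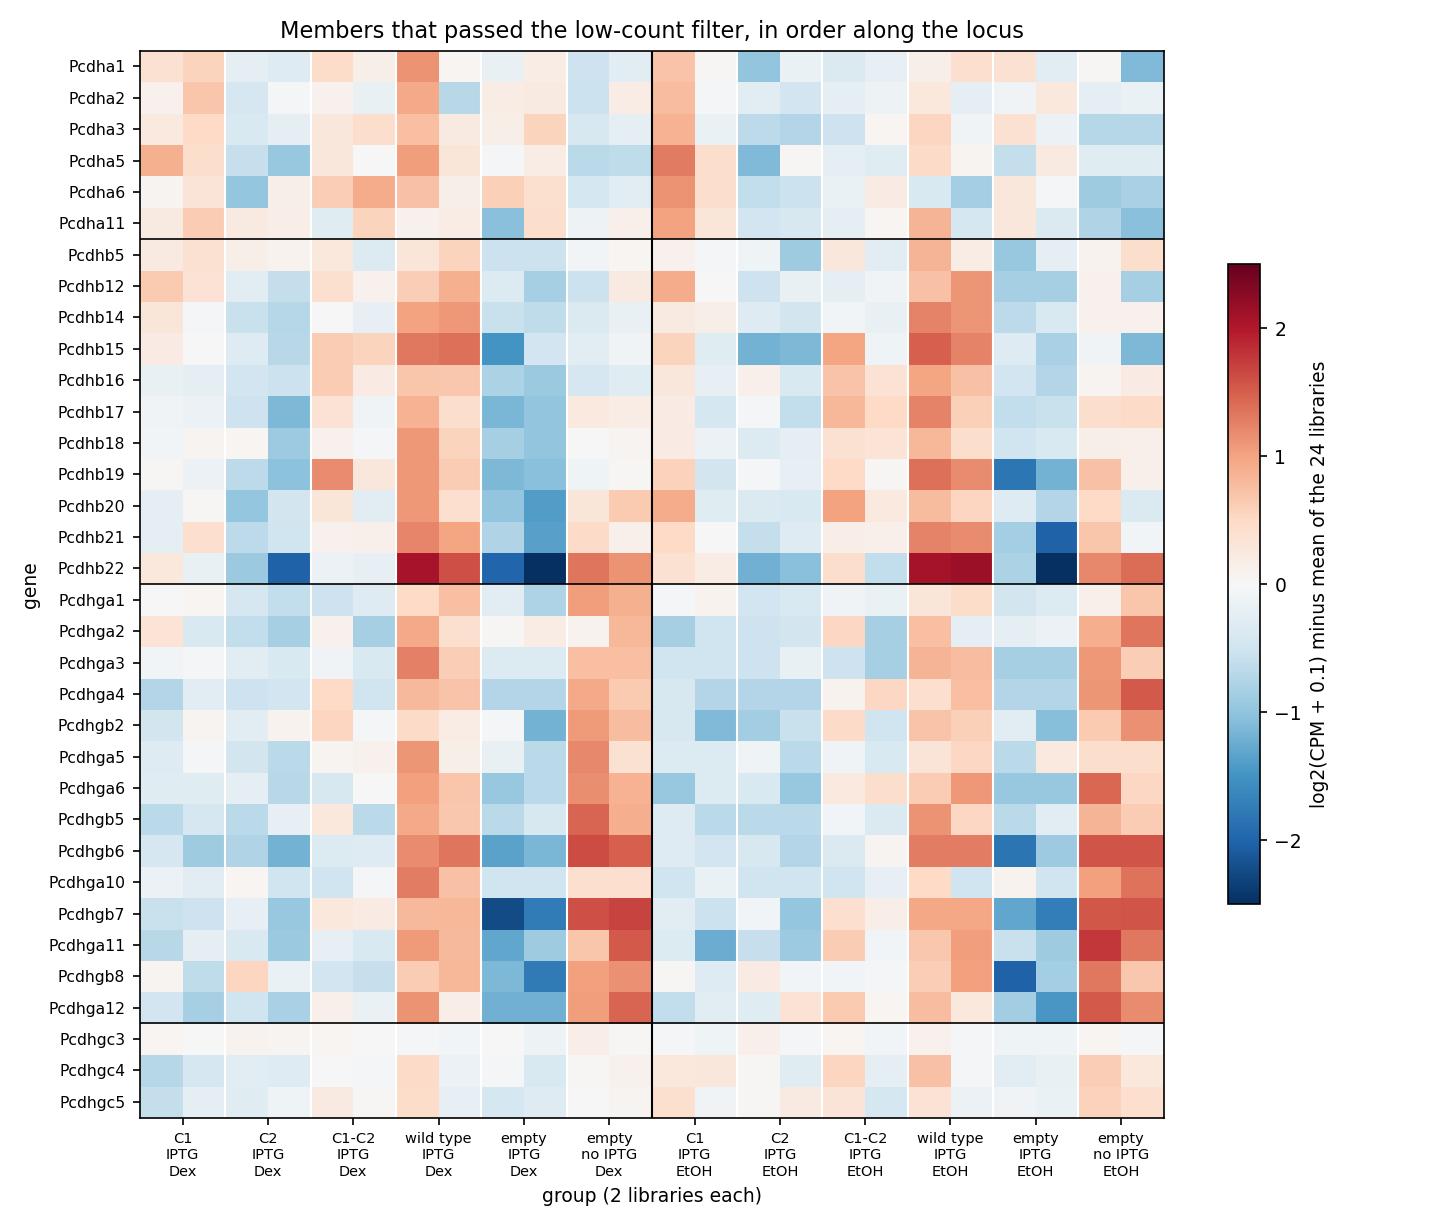
Level of each of the 34 tested members (rows, in order along the array) in each library (columns, by state, dexamethasone before ethanol), as log2(CPM + 0.1) minus the mean of the 24 libraries. By group mean, Pcdhgb6 and Pcdhgb7 are lowest in empty-vector cells with IPTG and highest without IPTG in both treatments, and Pcdhb14 and Pcdhb22 are highest with wild-type NIPBL; other members differ from this order.

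Position along the array was read only as a description. Among the 11 tested beta genes, Spearman's rho between the fitted log2 change and order was -0.264 in ethanol and -0.627 in dexamethasone. A negative value means lower towards the end of the array. Among the 14 tested gamma A and B genes rho was -0.187 in ethanol and -0.481 in dexamethasone. Between change and mean level rho was 0.3 and 0.4 for beta, and -0.095 and 0.147 for gamma A and B, in ethanol and dexamethasone. Mean level also varied with order (rho 0.264 for beta and 0.473 for gamma A and B), and members share libraries, so these values are not independent.

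Cells with wild-type NIPBL were then set against cells with the empty vector, both with IPTG. The same empty-vector libraries were the knockdown side of the first comparison, so the results of both are not independent. Members of the beta and of the gamma A and B sets were higher with wild-type NIPBL in both treatments. In ethanol 14 members were called higher by edgeR, 8 beta and 6 gamma A and B, when only 0.632% of tested genes (107) were called higher, and in dexamethasone 19 were, 9 beta and 10 gamma A and B (2.36%, 400 genes). The lists share 13 members. All 19 gamma A and B genes had a higher mean CPM with wild-type NIPBL in each treatment, as did 18 of 19 beta genes with a count in ethanol and 17 of 18 in dexamethasone, where 48.8% and 50.0% of all genes were higher. Both wild-type libraries lay above both empty-vector libraries for 25 of the 34 tested members in ethanol (20.4% of tested genes) and 27 in dexamethasone (21.9%). In ethanol the number called fell to 7 without empty-vector replicate 1, 8 without empty-vector replicate 2 and 9 without wild-type replicate 1. In dexamethasone it fell to 12 without either empty-vector replicate or without wild-type replicate 1. DESeq2 called 6 in ethanol and 10 in dexamethasone, and a filter of 1 CPM in 2 libraries left 7 and 8.

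The gamma A and B sum was 7.44 and 7.52 CPM with wild-type NIPBL in ethanol, against 1.01 and 1.23 CPM with the empty vector, 6.67-fold higher, and 8.196 and 7.02 CPM against 0.887 and 1.05 CPM in dexamethasone, 7.86-fold higher. Pcdhgb7 read 2.68 and 2.67 CPM with wild-type NIPBL in ethanol, against 0.481 and 0.330 CPM (6.48-fold higher, edgeR adjusted p = 7.78e-06), and was 9.07-fold higher in dexamethasone (edgeR adjusted p = 5.49e-07). Pcdhga6 had 20 counts in the 2 wild-type ethanol libraries and none in the empty-vector libraries, at least 6.13-fold higher. No more than 1 gamma A and B member was at 0 in any wild-type library.

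The beta sum was 24.6 and 21.3 CPM with wild-type NIPBL in ethanol, against 5.64 and 5.64 CPM with the empty vector, 4.07-fold higher, and 4.24-fold higher in dexamethasone. Pcdhb14 read 8.97 and 8.11 CPM with wild-type NIPBL in ethanol, against 2.33 and 2.82 CPM (3.33-fold higher, edgeR adjusted p = 1.17e-07), and 7.54 and 7.98 CPM against 2.504 and 2.36 CPM in dexamethasone (3.19-fold, edgeR adjusted p = 1.06e-07). Pcdhb22 read 3.25 and 3.39 CPM against 0.354 and 0.0300 CPM in ethanol (16.1-fold higher, edgeR adjusted p = 3.52e-05). In both genes every wild-type library lay above every empty-vector library. Pcdhb12 had 19 counts in the wild-type ethanol libraries and none with the empty vector, at least 5.82-fold higher.

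The alpha and C-type genes were not called in this comparison. At an unadjusted p under 0.05 edgeR had no alpha gene in either treatment, and 2 C-type genes higher in ethanol and 1 in dexamethasone, and DESeq2 called none. Alpha sums overlapped between wild-type and empty-vector cells in both treatments. In dexamethasone the alpha sum was 4.91 and 2.30 CPM in the 2 wild-type libraries, so replicate 1 stood above replicate 2, against 2.22 and 3.08 CPM with the empty vector. Pcdhgc3 changed by log2 0.16 (SE 0.06, edgeR adjusted p = 0.36) in ethanol and 0.00 (SE 0.06, edgeR adjusted p = 0.989) in dexamethasone.

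**Figure D4:**
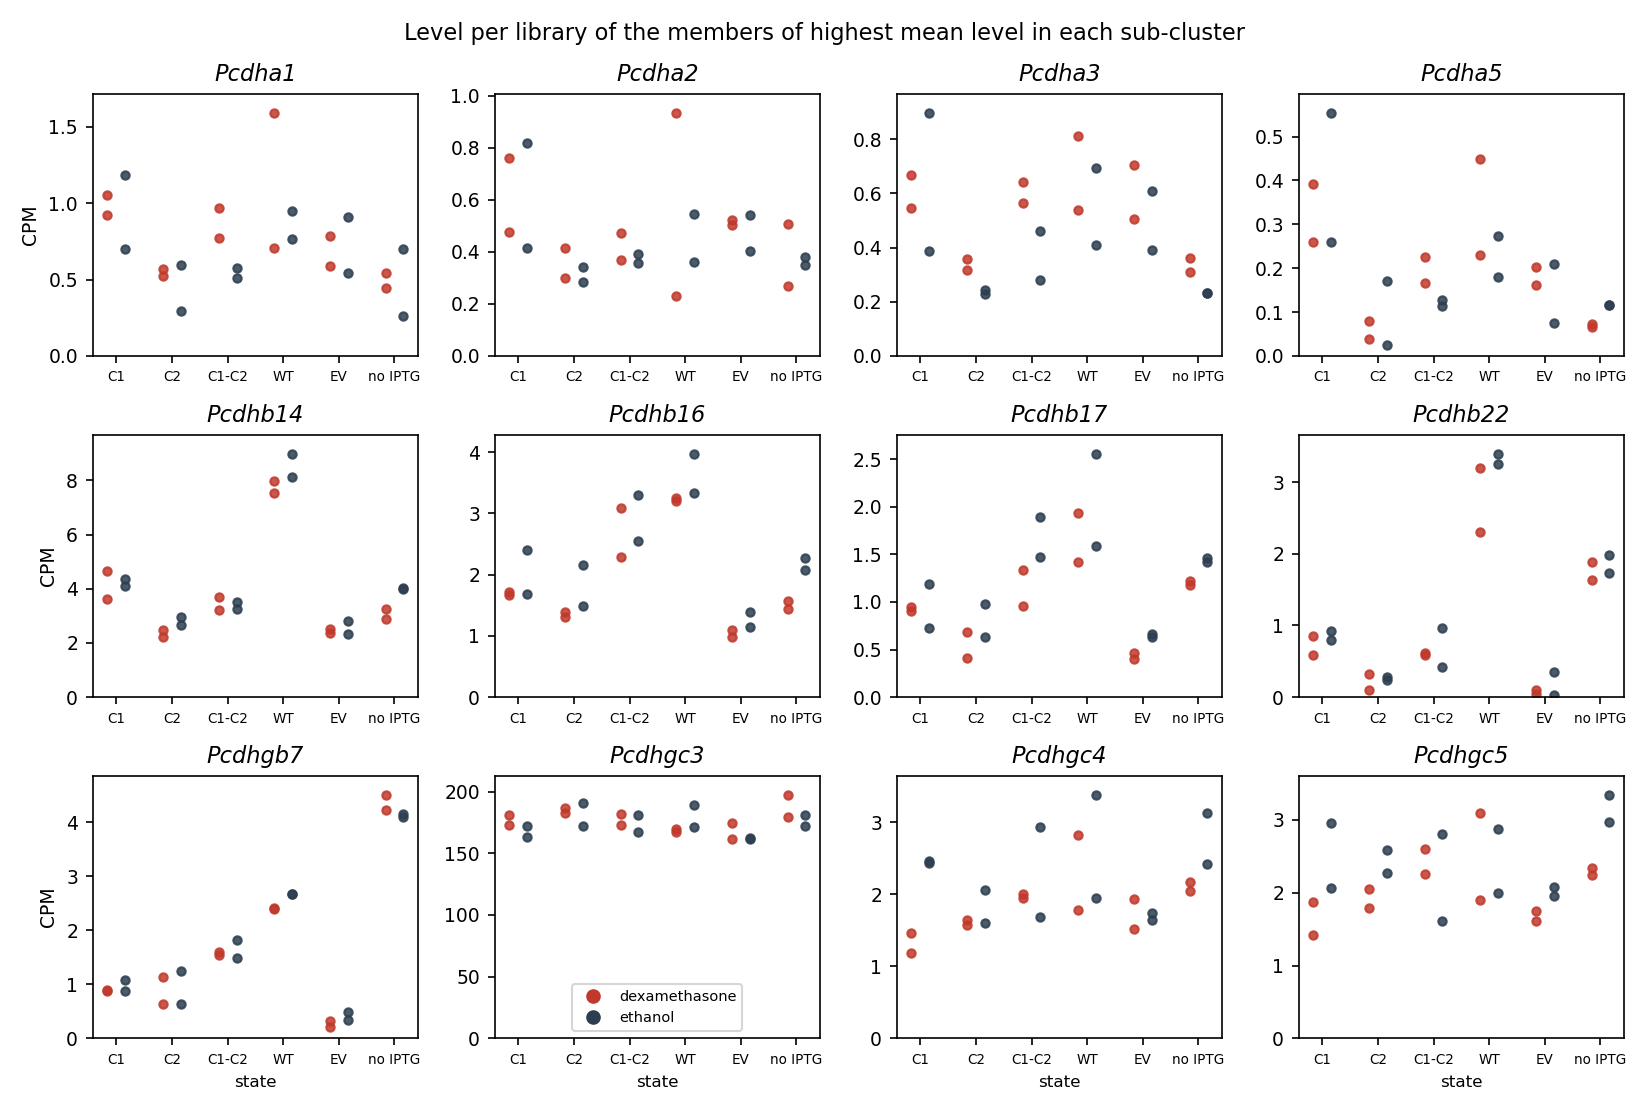
CPM of single members (y axes, linear) in every library of the 6 states (x axis), dexamethasone left of ethanol. WT is wild-type NIPBL and EV the empty vector, both with IPTG, and the last state is the empty vector without IPTG. Pcdhgb7 stays below its no-IPTG level of 4.08 to 4.49 CPM in all libraries with IPTG, while Pcdhb14 and Pcdhb22 with wild-type NIPBL lie above theirs in each treatment.

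The summed levels of the clusters parted when wild-type NIPBL cells with IPTG were set against empty-vector cells without IPTG, which use their own NIPBL. These sums were not tested, and the edgeR fit took both treatments together. The beta and alpha sums stood above the level without IPTG and the gamma A and B sum below it. The beta sum was 1.87-fold higher in ethanol and 2.04-fold in dexamethasone, and the alpha sum 1.96-fold and 2.22-fold higher, whereas the gamma A and B sum was 70.4% and 71.6% of the level without IPTG. By edgeR, 11 of the 34 tested members were higher, namely Pcdha1, Pcdha3 and Pcdha5 with 8 beta genes (7.23% of tested genes). Only Pcdhgb7 was lower, 1 of the 14 tested gamma A and B genes. That is a smaller share than the 9.36% of all tested genes called lower. Pcdhgb7 held 38.7% and 41.0% of the gamma A and B sum without IPTG, in ethanol and dexamethasone. Pcdhb14 was 2.32-fold higher (edgeR adjusted p = 3.67e-09) and Pcdhb16 1.89-fold higher (edgeR adjusted p = 7.02e-05). Pcdhgb7 was 1.67-fold lower (log2 -0.74, SE 0.15, edgeR adjusted p = 0.0014), with 2.39 to 2.68 CPM in wild-type libraries and 4.08 to 4.49 CPM without IPTG. Pcdha3 was 2.17-fold higher (edgeR adjusted p = 0.00973). Without wild-type dexamethasone replicate 1, the highest alpha library, 6 members were called higher and 2 lower; 6 were called higher without wild-type ethanol replicate 1 or no-IPTG dexamethasone replicate 1, and 7 without no-IPTG ethanol replicate 2. DESeq2 called 5 higher, and a filter of 1 CPM in 2 libraries left 6.

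The mutants were set against wild-type NIPBL and against the empty vector, all with IPTG, with both treatments in 1 fit. These comparisons share the wild-type or the empty-vector libraries, so their results are not independent. For the gamma A and B sum every mutant lay between empty vector and wild type, with no overlap with either. In ethanol it was 2.23 to 2.53 CPM with C1, 1.91 to 2.69 CPM with C2 and 3.49 to 4.16 CPM with C1-C2, against 7.44 to 7.52 CPM with wild-type NIPBL. In dexamethasone it was 2.32 to 2.49 CPM with C1, 1.65 to 2.80 CPM with C2 and 3.03 to 3.81 CPM with C1-C2, against 7.02 to 8.196 CPM with wild type. C1 and C2 overlapped in both treatments, and C1-C2 lay above both of them in each.

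Against wild-type NIPBL, C1 had 18 members lower by edgeR, 8 beta and 10 gamma A and B (4.41% of tested genes were lower). C2 had 25 lower, made up of Pcdha1, Pcdha3, Pcdha5, 10 beta and 12 gamma A and B genes (5.98%). C1-C2 had 9 lower, made up of Pcdhb14, Pcdhb21, Pcdhb22 and 6 gamma A and B genes (2.19%). Without C1-C2 ethanol replicate 2, the library whose labels disagree, this last number was 5, as it was without C1-C2 dexamethasone replicate 2 or wild-type ethanol replicate 2. DESeq2 called 8, 9 and 4 members lower with C1, C2 and C1-C2, and a filter of 1 CPM in 2 libraries left 8, 8 and 4. Pcdhgb7 was 2.73-fold lower with C1 (edgeR adjusted p = 6.02e-06) and 2.73-fold lower with C2 (edgeR adjusted p = 7.05e-06). With C1-C2 it was 1.57-fold lower (edgeR adjusted p = 0.0213).

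Beta members were also below wild type in the mutants, but wild type's own beta sum lay above the level without IPTG. Set against no IPTG, the beta sum overlapped with C1 (88.6% of that level in ethanol, 98.7% in dexamethasone) and with C1-C2 (94.3% and 108.7%). With C2 it was 59.2% and 58.1%, without overlap. The gamma A and B sum stayed lower without overlap. It was 22.4% and 22.6% with C1, 21.65% and 20.94% with C2, and 36.0% and 32.2% with C1-C2. These sums were not tested. The beta sum was 1.98-fold lower than wild type with C1-C2 in ethanol, 2.11-fold lower with C1 and 3.16-fold lower with C2. Pcdhb22 read 0.245 and 0.285 CPM with C2 in ethanol, against 3.25 and 3.39 CPM with wild-type NIPBL, and over both treatments it was 12.6-fold lower with C2 (edgeR adjusted p = 1.07e-07). It was 3.80-fold lower with C1 (edgeR adjusted p = 3.82e-05) and 4.72-fold lower with C1-C2 (edgeR adjusted p = 2.02e-05). Pcdhb16 was 2.18-fold lower than wild type with C2 (edgeR adjusted p = 1.61e-05) and 1.85-fold lower with C1 (edgeR adjusted p = 0.000189), and 1.23-fold lower with C1-C2 (log2 -0.30, SE 0.14, edgeR adjusted p = 0.25). The mutants were not tested against each other.

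Against the empty vector, C1 had 8 members higher by edgeR, Pcdhb12, Pcdhb14, Pcdhb16, Pcdhb19, Pcdhb21, Pcdhb22, Pcdhgb7 and Pcdhgb8 (0.685% of tested genes were higher). C1-C2 also had 8 higher, Pcdhb16, Pcdhb17, Pcdhb19, Pcdhb21, Pcdhb22, Pcdhgb6, Pcdhgb7 and Pcdhga12 (0.307%). C2 had Pcdhgb7 and Pcdhgb8 higher (2.11%). With C2, DESeq2 called 1 gamma A and B gene and 1 C-type gene higher, and the lowest edgeR adjusted p of a C-type gene was 0.052. Pcdhgb7 was 2.81-fold higher with C1 (edgeR adjusted p = 0.000586), 2.81-fold with C2 (edgeR adjusted p = 0.000679) and 4.87-fold with C1-C2 (edgeR adjusted p = 1.05e-06). No beta gene was called with C2 by edgeR, with 3 higher at an unadjusted p under 0.05, and DESeq2 called none. Pcdhb14 had 2.96 and 2.68 CPM with C2 in ethanol, against 2.33 and 2.82 CPM with the empty vector (log2 0.05, SE 0.11, edgeR adjusted p = 0.877). The beta sum with C2 still lay above the empty vector without overlap. It was 6.64 to 7.90 CPM against 5.64 and 5.64 CPM in ethanol, and 5.20 to 6.47 CPM against 4.68 to 4.99 CPM in dexamethasone. The C1 number fell to 4 without C1 ethanol replicate 1 or empty-vector dexamethasone replicate 2, and to 5 without C1 dexamethasone replicate 1 or empty-vector ethanol replicate 1. The C1-C2 number fell to 4 without C1-C2 ethanol replicate 1, and to 5 without C1-C2 dexamethasone replicate 1 or empty-vector dexamethasone replicate 2. It was 5 with a filter of 1 CPM in 2 libraries, 15 without a filter and 13 in a fit of the libraries compared alone. With a replicate block over all libraries it was 15. Without a filter, or with a replicate block, C2 had 5 higher and 1 lower.

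Among the cells with IPTG the alpha sum was lowest with C2, at 1.17 to 1.54 CPM in ethanol and 1.65 to 1.94 CPM in dexamethasone, against 2.21 to 3.15 CPM and 2.30 to 4.91 CPM with wild-type NIPBL, without overlap in either treatment. Pcdha5 was 3.65-fold lower with C2 than with wild type (edgeR adjusted p = 0.00996), Pcdha3 2.16-fold lower (edgeR adjusted p = 0.014) and Pcdha1 2.03-fold lower (edgeR adjusted p = 0.0242). With C1 the alpha sum was 2.82 to 4.91 CPM in ethanol, which overlapped wild type. The C-type sums of all 12 groups overlapped their neighbours in the order of levels, from 165 to 166 CPM in empty-vector ethanol cells to 184 to 201 CPM in dexamethasone cells without IPTG.

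Dexamethasone libraries were then set against ethanol libraries, a comparison in which hormone and library series coincide and most members lie near the counting floor. Without IPTG 1 member, Pcdhb14, was lower by edgeR (18.2% of tested genes were lower and 19.8% higher), at 2.87 and 3.26 CPM with dexamethasone, against 4.04 and 3.998 CPM with ethanol (1.31-fold lower, edgeR adjusted p = 0.0386). DESeq2 did not call it, and it was no longer called without no-IPTG ethanol replicate 1, no-IPTG ethanol replicate 2 or no-IPTG dexamethasone replicate 1. Over the 5 states with IPTG, Pcdhb16, Pcdhb17, Pcdhb20 and Pcdhgc4 were lower (28.4% of tested genes were) and Pcdhga3, which DESeq2 did not call, was higher (31.3%). Pcdhb17 was 1.32-fold lower (edgeR adjusted p = 0.0155), Pcdhb16 1.20-fold lower (edgeR adjusted p = 0.0231) and Pcdhgc4 1.23-fold lower (edgeR adjusted p = 0.0389). The number lower was 0 without ethanol replicate 1 of C1 or of C2, 1 without ethanol replicate 1 of C1-C2, wild type or empty vector or without C1-C2 dexamethasone replicate 2, and 2 without dexamethasone replicate 1 of C1 or replicate 2 of wild type or empty vector. The number higher was 3 without C1 ethanol replicate 1, and 2 without wild-type ethanol replicate 1, C2 dexamethasone replicate 1 or wild-type dexamethasone replicate 2.

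Genes around the array were examined on the same terms. Within 1 Mb on either side or inside the array, 43 of 92 genes were tested, and 2 were lower and 6 higher with knockdown in ethanol, where 6.24% and 7.16% of all tested genes were. Inside the array span 5 were tested, among them Taf7, a subunit of the general transcription factor TFIID, with 5.35 ± 0.193 CPM with knockdown in ethanol, against 5.51 ± 1.29 CPM without IPTG (SD, n = 2 each; edgeR adjusted p = 0.931). Beyond the gamma cluster, Gnpda1, a glucosamine-6-phosphate deaminase, read 41.0 ± 0.785 CPM with knockdown, against 23.96 ± 0.779 CPM without IPTG (SD, n = 2 each), 1.71-fold higher (edgeR adjusted p = 2.06e-09). Pcdh1, a protocadherin outside the clusters, was 2.31-fold higher (edgeR adjusted p = 5.5e-06). Arap3, a GTPase-activating protein, was 5.62-fold higher (edgeR adjusted p = 0.00154). Before the alpha cluster, Slc35a4 was 1.46-fold lower (edgeR adjusted p = 1.63e-07). With wild-type NIPBL in ethanol Gnpda1 was 1.30-fold lower than with the empty vector (edgeR adjusted p = 0.000435).

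**Figure D5:**
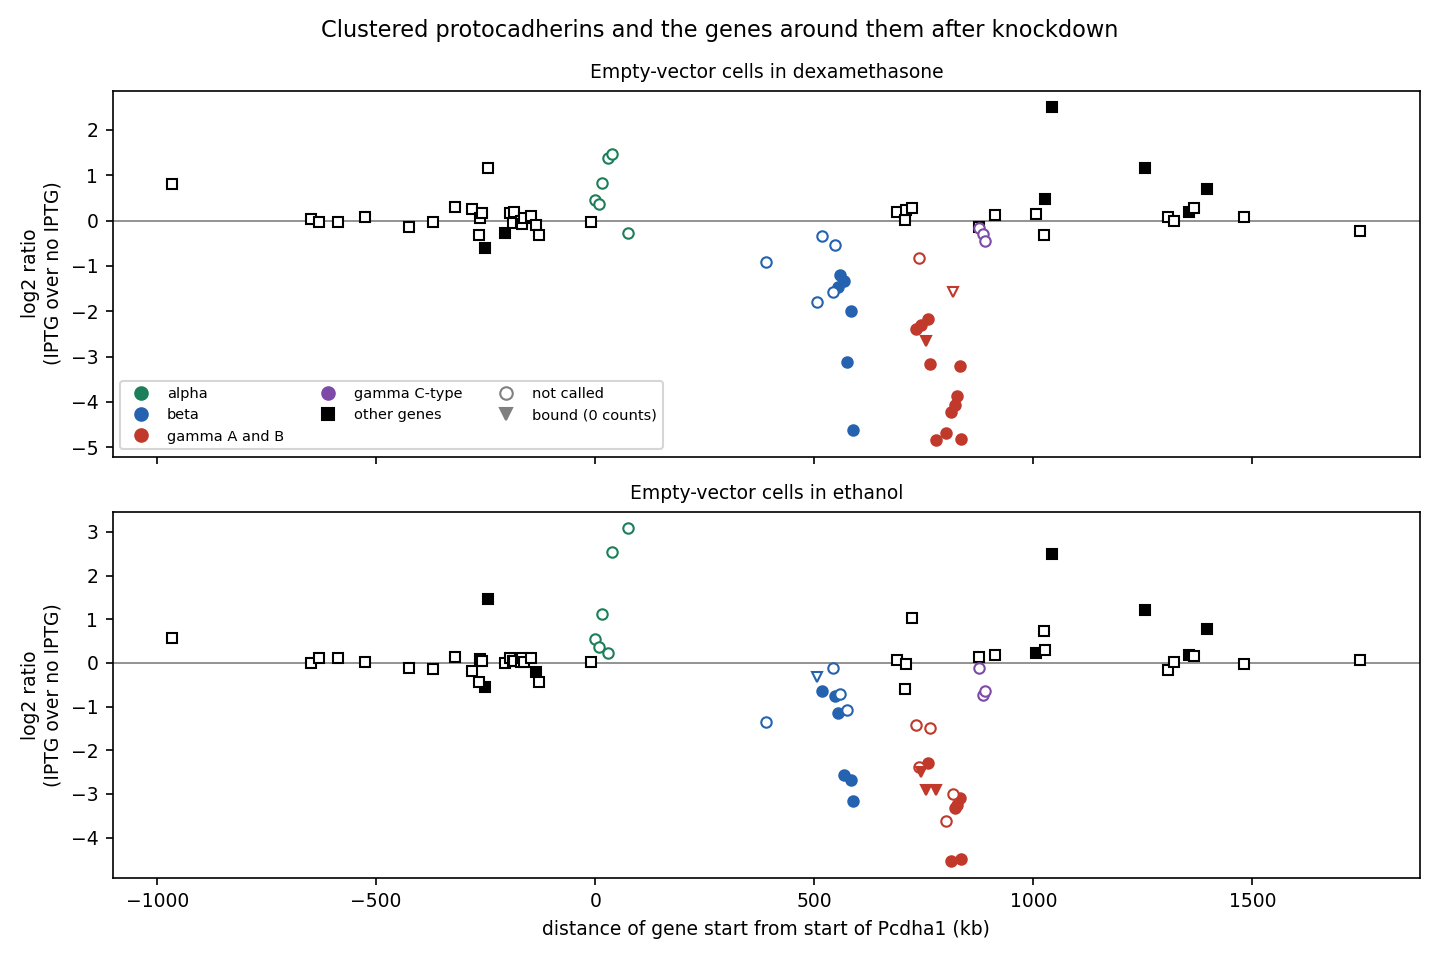
Change with knockdown against no IPTG (y axis, log2) for array members and for the tested genes within 1 Mb, by distance from the first alpha gene (x axis, kb), one panel a treatment. Circles are members that passed the filter, squares other genes, triangles bounds against a group at 0, and filled symbols were called by edgeR; filled circles occur among beta and gamma A and B members only, all below 0.

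Genes of the wider pathway were counted in the same fit. Of 12 non-clustered protocadherins 6 were tested, and with knockdown in ethanol Pcdh7 was 1.17-fold lower (edgeR adjusted p = 0.045) and Pcdh1 higher. Of 20 genes known to regulate the locus 19 were tested, of which 6, Nipbl included, were lower and 1 higher in ethanol (6.24% and 7.16% of all tested genes) and 7 lower and 1 higher in dexamethasone (8.49% and 8.36%). Nipbl, the target, was 2.84-fold lower in ethanol (edgeR adjusted p = 1.39e-08). The cohesin subunit gene Stag1 was 1.49-fold higher (edgeR adjusted p = 2.42e-08), the cohesin regulator Pds5b 1.25-fold lower (edgeR adjusted p = 1.23e-05) and the DNA methyltransferase Dnmt3a 1.26-fold lower (edgeR adjusted p = 0.000412). Of 15 genes for protein partners and processing 14 were tested, and Ptk2b, a kinase that clustered protocadherins inhibit, was alone called in ethanol, 1.41-fold lower (edgeR adjusted p = 1.16e-05).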

How the data were processed

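Total RNA was profiled in 24 libraries of 3134 cells, prepared with a stranded kit after ribosomal RNA removal, per the labels' protocols. The authors deposited raw read counts per gene in 1 table with mm10 coordinates. Per the submitters' processing notes, bcl2fastq 2.20, cutadapt 1.18, STAR 2.7.0f and featureCounts of Subread 2.0.3 were used; the strand and overlap settings of counting are not given in the sources used here. All 24 columns matched a library title, and 0 columns lay outside them. Exons shared between members and neighbouring genes were read from GENCODE mouse release 21, in which all 55341 gene names were found.

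The deposited counts were tested with edgeR 4.0.16 (R 4.3.3, limma 3.58.1): a filter by expression with a minimum count of 10 kept 16934 genes and removed 38407, TMM factors scaled the libraries, and 1 robust quasi-likelihood fit over 12 groups left 12 residual degrees of freedom, with a median biological coefficient of variation of 6.43%. A gene was called at a Benjamini-Hochberg adjusted p under 0.05 over all tested genes, in each of 14 comparisons. CPM use the TMM factors. DESeq2 1.42.0 was an alternative, with other filters, scalings and left-out libraries. Tables and plots were made with Python 3.11.15. Sums over members and position were described and not tested. Ratios with few counts carry exact 95% intervals, and a group at 0 was set to a floor of 3 counts. The fit was tested on simulated data.

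The members and gene lists were chosen with earlier results of these data known. The members named were the 4 most abundant tested ones of each cluster, and others were named after their values were seen. Of listed genes and neighbours, those called in the ethanol knockdown comparison with the smallest adjusted p were named. No sequence is printed. Same-numbered libraries were not paired by the labels.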

Additional observations from a re-analysis of the deposited data

Results flagged for a closer look

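In 2 members the C1 mutant moved opposite ways against the empty vector in the 2 treatments, with both libraries of a treatment on the same side; the difference was not tested. Of all 16934 tested genes, 3.13% did the same, against these 2 of the 34 tested members. Pcdha6 read 0.396 and 0.207 CPM with C1 in ethanol, against 0.177 and 0.120 CPM with the empty vector, and 0.140 and 0.185 CPM against 0.242 and 0.202 CPM in dexamethasone, levels that rest on few counts. Its mean log2 ratio in dexamethasone minus that in ethanol was -1.47. Pcdhgc4 read 2.43 and 2.46 CPM with C1 in ethanol, against 1.65 and 1.74 CPM, and 1.19 and 1.46 CPM against 1.94 and 1.51 CPM in dexamethasone, a difference of -0.91.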

How the results depend on the processing

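Of the counts of called members, 434 stayed within 1.5 times the reported one under an alternative and 82 did not; RLE scaling and leaving the 2 most abundant genes out of the totals moved none. A filter of 1 CPM in 2 libraries, which removes most members, left 7 (ethanol) and 6 (dexamethasone) lower with knockdown, 7 and 8 higher with wild-type NIPBL against the empty vector, 5 higher with C1-C2, 8, 8 and 4 lower than wild type with C1, C2 and C1-C2, 6 higher with wild type against no IPTG, and 0 higher with dexamethasone under IPTG. DESeq2 gave 7 and 5 lower with knockdown, 6 and 10 higher with wild type, 8, 9 and 4 lower than wild type with C1, C2 and C1-C2, 5 higher with wild type against no IPTG, 0 lower with dexamethasone without IPTG and 0 higher with dexamethasone under IPTG. It gives no adjusted p to 22 of the 34 members in ethanol and 20 in dexamethasone; without that step, an alternative chosen after seeing the data, it called 14 and 12 lower with knockdown, and both dexamethasone counts stayed at 0. Without any filter 1 member was higher with knockdown in dexamethasone, 1 lower and 5 higher with C2 and 15 higher with C1-C2 against the empty vector, 0 lower with dexamethasone without IPTG and 2 higher under IPTG. A fit of the libraries compared alone gave 13 higher with C1-C2 against the empty vector and 0 lower with dexamethasone without IPTG. Moving C1-C2 ethanol replicate 2 to dexamethasone gave 4 lower with C1-C2 than wild type, and 0 lower with dexamethasone without IPTG and 0 higher under IPTG; leaving it out gave 5 lower with C1-C2 than wild type. The causes were not tested.

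The labels give the same replicate numbers to all groups but name no shared culture or day. Deviations of same-numbered libraries correlated above 0.1 in 11 of 15 pairs of ethanol groups, 9 of 15 pairs of dexamethasone groups and 24 of 36 pairs across treatments. The median r was 0.296, 0.155 and 0.182. Most same-numbered libraries thus deviated together, but the main fit did not pair them, since the labels name no such link. A fit with a replicate block, over all libraries and within treatment, gave 1 lower and 5 higher with C2 against the empty vector in both fits, 15 and 14 higher with C1-C2, 2 lower with wild type against no IPTG and 2 lower with dexamethasone without IPTG; it moved no other count of calls by over 1.5 times.

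Leaving out 1 library at a time gave, where it moved a count, 7 to 9 members higher with wild type against the empty vector in ethanol and 12 in dexamethasone. It gave 4 to 5 higher with C1, 1 lower with C2 and 4 to 5 higher with C1-C2 against the empty vector, and 5 lower with C1-C2 than wild type. Against no IPTG, wild type then had 6 to 7 higher and 2 lower. Dexamethasone then had 0 lower without IPTG, and 0 to 2 lower and 2 to 3 higher under IPTG.

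With knockdown and with wild type against the empty vector, log2 changes were followed under the alternatives for only some tested members. Among those, the changes that turned sign all belonged to uncalled alpha and C-type genes. Pcdhb15, a beta gene not among them, read 0.1265 and 0.0600 CPM with knockdown in ethanol, against 0.163 and 0.0292 CPM without IPTG. Its direction thus depends on which library without IPTG is left out. The mutant and dexamethasone comparisons are not covered by these statements. Over the left-out libraries, Pcdha5 with knockdown in ethanol ran from -0.603 (without empty-vector replicate 2) to 0.832. For wild type against the empty vector in ethanol, Pcdha1 ran from -0.086 to 0.667, Pcdha3 from -0.295 to 0.504 (-0.133 without empty-vector replicate 2), Pcdha2 from -0.38 to 0.217 (0.162 without empty-vector replicate 2), and Pcdhgc5 from -0.009 to 0.512. In dexamethasone, Pcdha3 ran from -0.172 to 0.424 (-0.057 without empty-vector replicate 1), Pcdha2 from -1.151 to 0.855, and Pcdhgc3 from -0.055 to 0.062 (-0.008 without wild-type replicate 1), with -0.011 when no filter was used. The log2 ratio of the alpha sums ran from -0.149 to 0.363 in ethanol and from -0.205 to 0.889 in dexamethasone, each lowest without wild-type replicate 1, and that of the C-type sums in dexamethasone from -0.043 to 0.074 (-0.006 without wild-type replicate 1). With 2 libraries a group, most alpha members and the low gamma members lie near the counting floor, and changes of their size could often not be detected at this depth.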

Other observations

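Of the 19 tested regulators of the locus, Stag1 alone was called with wild-type NIPBL against the empty vector in ethanol (0.526% of all tested genes were lower), and Stag1 and Pds5b alone in dexamethasone (1.84% of all tested genes were lower and 2.36% higher). Stag1, a cohesin subunit gene that was higher with knockdown, read 162 ± 0.0934 CPM with wild-type NIPBL in ethanol, against 221.5 ± 0.768 CPM with the empty vector (SD, n = 2 each), 1.37-fold lower (edgeR adjusted p = 7.78e-06), and was 1.31-fold lower in dexamethasone (edgeR adjusted p = 3.55e-05). Pds5b read 157 ± 3.14 CPM with wild-type NIPBL in dexamethasone, against 134 ± 3.20 CPM (SD, n = 2 each), 1.17-fold higher (edgeR adjusted p = 0.00268), while in ethanol it was 1.12-fold higher (edgeR adjusted p = 0.0774). With dexamethasone and no IPTG, 12 of the same 19 were lower and 3 higher than with ethanol, where 18.2% and 19.8% of all tested genes were.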
